A study of Mus musculus with 180 samples.

Results

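The 37 genes of the mouse mitochondrial chromosome (chrM) were followed gene by gene in bone marrow-derived macrophages (BMDMs). They are all the chrM rows of the deposited expression table, 37 of 45070 genes, and comprise 13 protein-coding genes, 2 rRNA genes and 22 tRNA genes. BMDMs are macrophages grown in culture from bone marrow, here wild type and from male C57/BL6 mice 6 to 8 weeks old. Cells received 1 of 58 clinical kinase inhibitors (CKIs) or the vehicle DMSO for 1 h and were then stimulated for 2 h with lipopolysaccharide (LPS, 10 ng/ml), a bacterial ligand of TLR4, so that every group, DMSO included, carried the LPS stimulus. There were 3 samples of each CKI and 6 of DMSO, labelled as set 1 and set 2 with 3 samples each, for 180 samples in 59 groups. Each CKI was used at a concentration of its own, matched to its intended target, so that differences between CKIs mix compound and dose. Samples without LPS were not analysed here. Values are reads per gene after scaling by the authors to genes that do not vary and rounding, and are called normalized values below; the read depth behind them is unknown.

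The mitochondrial genome is a small circle transcribed on both strands into long precursors. Excision of the tRNAs that separate the other genes releases the rRNAs and mRNAs, and most of the mRNAs then receive short poly(A) tails. All 13 proteins are core subunits of oxidative phosphorylation (OXPHOS): 7 of complex I (mt-Nd1 to mt-Nd6 and mt-Nd4l), 1 of complex III (mt-Cytb), 3 of complex IV (mt-Co1 to mt-Co3) and 2 of ATP synthase, complex V (mt-Atp6 and mt-Atp8). The 2 rRNAs, mt-Rnr1 and mt-Rnr2, build the small and the large subunit of the mitochondrial ribosome, and the remaining subunits of both machines are encoded in the nucleus. In macrophages stimulated with LPS, metabolism is known to shift from respiration towards glycolysis, which makes these transcripts of interest in this setting.

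Libraries were primed with oligo(dT), which makes the 3′ ends of the mRNAs relevant to what was captured. The last 30 bases of 5 mRNA genes are shown, in gene sense from the mm10 reference transcripts (GENCODE), with the last codon or the bases left of it in capitals. Of the 13 genes, 10 end in a complete stop codon and 3 (mt-Co3, mt-Nd4 and mt-Cytb) end in a lone T, to which a tail of A adds the missing letters of TAA. mt-Co1 and mt-Nd5 stand for the complete form, the latter because it meets mt-Nd6 on the opposite strand.
mt-Co3, chrM:9361-9390, plus strand: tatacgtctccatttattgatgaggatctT
mt-Nd4, chrM:11515-11544, plus strand: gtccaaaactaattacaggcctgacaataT
mt-Cytb, chrM:15259-15288, plus strand: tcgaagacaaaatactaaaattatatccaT
mt-Co1, chrM:6843-6872, plus strand: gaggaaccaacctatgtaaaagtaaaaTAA
mt-Nd5, chrM:13536-13565, plus strand: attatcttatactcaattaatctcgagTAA
A pair of genes shares more than a few bases. The start of mt-Atp6 lies inside the end of mt-Atp8, and the 43 shared bases are in capitals with 15 bases on each side, so reads there could be split between both genes.
mt-Atp8 and mt-Atp6, chrM:7912-7984, plus strand: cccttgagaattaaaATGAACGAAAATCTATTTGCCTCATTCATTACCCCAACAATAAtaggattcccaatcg
mt-Nd5 and mt-Nd6 share 14 bases on opposite strands and mt-Nd4 and mt-Nd4l share 7. Whether the counting used strand is not given in the sources used here, so reads of overlapping or opposite genes cannot be told apart. Copies of mitochondrial sequence in the nuclear genome can also share reads with these genes, and their part in the values was not tested.

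Of the 37 genes, 17 reached the filter for testing, which required values averaging 10 or more across the 180 samples. These were the 13 mRNAs, both rRNAs and the tRNA genes mt-Tq and mt-Ts1. The other 20 tRNA genes averaged from 0.0167 (mt-Tr) to 4.89 (mt-Tp), never exceeded 22 in any sample, and were not tested. Mature tRNAs carry no poly(A) tail and were therefore not the target of this preparation.

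Levels were compared between genes per kb of gene length, in the 6 DMSO samples. With oligo(dT) priming, the levels can differ between genes through capture as well as RNA abundance, and the part of capture was not tested. mt-Rnr2 was highest with 33900 ± 12600 per kb (SD, n = 6), ahead of mt-Co1, a catalytic subunit of complex IV, with 14700 ± 7630. The subunits mt-Atp6 (12300 ± 5120) and mt-Co3 (12200 ± 4950) followed with means close to each other. Of the pair, mt-Atp6 was the higher in 3 of the 6 DMSO samples and in 145 of all 180, and the difference was not tested. mt-Nd1 reached 7850 ± 3840 per kb and mt-Co2 6620 ± 3470. mt-Rnr1, transcribed next to mt-Rnr2 but here far below it, had 3760 ± 2470 per kb. Below it came mt-Cytb (3000 ± 1630), mt-Atp8 (2550 ± 1090), mt-Nd4 (1880 ± 1250), mt-Nd4l (1300 ± 792), mt-Nd5 (864 ± 577) and mt-Nd3 (685 ± 291). The lowest mRNAs were mt-Nd6 (436 ± 278), the only protein-coding gene on the minus strand, and mt-Nd2 (404 ± 266). Complex IV genes thus spanned 6620 to 14700 per kb and complex I genes 404 to 7850. Neighbours in this order kept it in at least 144 of the 180 samples, except mt-Nd6 and mt-Nd2, where the order held in 106.

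**Figure D1:**
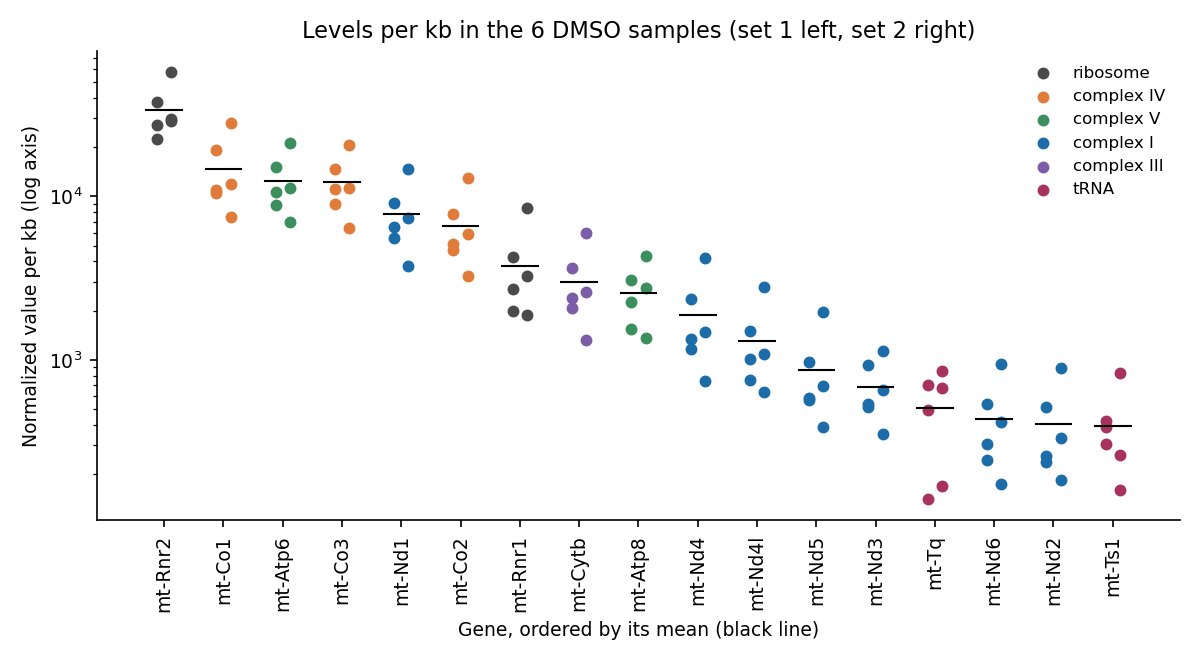
Normalized value per kb of gene length (log axis) of the 17 chrM genes tested, in each of the 6 DMSO samples (points, set 1 to the left and set 2 to the right of each position) with the mean as a black line, coloured by complex or RNA class. mt-Rnr2 averaged 33900 per kb and mt-Nd2 404 per kb, and the DMSO samples of each gene are spread over a wide range.

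The summed level of the 13 mRNAs varied widely already among the controls. In DMSO set 1 it was 76928, 43954 and 49626 for replicate numbers 1, 2 and 3, and in set 2 it was 116640, 31264 and 53773. Number 1 was the highest and number 2 the lowest in both sets. mt-Co1 alone ranged from 11593 to 43361 over the 6 samples (22700 ± 11800, SD), mt-Atp6 from 4744 to 14399 (8400 ± 3490), mt-Cytb from 1515 to 6806 (3430 ± 1870) and mt-Nd5 from 704 to 3601 (1580 ± 1050). The sets did not differ for any of the 17 genes: limma called 0 (0% of all genes tested were called in this comparison), with 0 of 17 chrM genes and 310 of 12714 genes at an unadjusted p under 0.05. The median log2 difference of the 13 mRNAs, set 2 minus set 1, was 0.11 (−0.40 without number 1 of set 2 and −0.061 without number 2 of set 1). The 95% confidence interval for mt-Co1 ran from −1.08 to 1.19, so that differences of either sign within it are compatible with the values.

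All chrM genes together took from 0.525% to 4.471% of a sample's normalized values, with a median of 1.339% over the 180 samples. The DMSO samples held 1.339%, 0.8707% and 0.9163% in set 1 and 1.945%, 0.7595% and 1.061% in set 2, a mean of 1.15% ± 0.438 (SD, n = 6). Pimasertib, an inhibitor of the kinase MEK, had the highest mean, 3.66%, with 4.287%, 3.244% and 3.448% in its 3 samples. NMS1286937 had the lowest, 0.834%, with 0.9037%, 0.9808% and 0.6177%. Of the 58 CKIs, 45 had a mean above that of DMSO and 13 below it. The samples of 56 CKIs overlapped the DMSO range, and those of 2, Pimasertib and Lenvatinib, lay above it entirely. Samples of the same CKI often stood far apart, as for Pacritinib, a JAK inhibitor, with 4.204%, 3.393% and 0.8919%. These shares are descriptions and were not tested. In bulk RNA, more mitochondrial RNA per cell and more cells that are rich in it cannot be told apart.

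**Figure D2:**
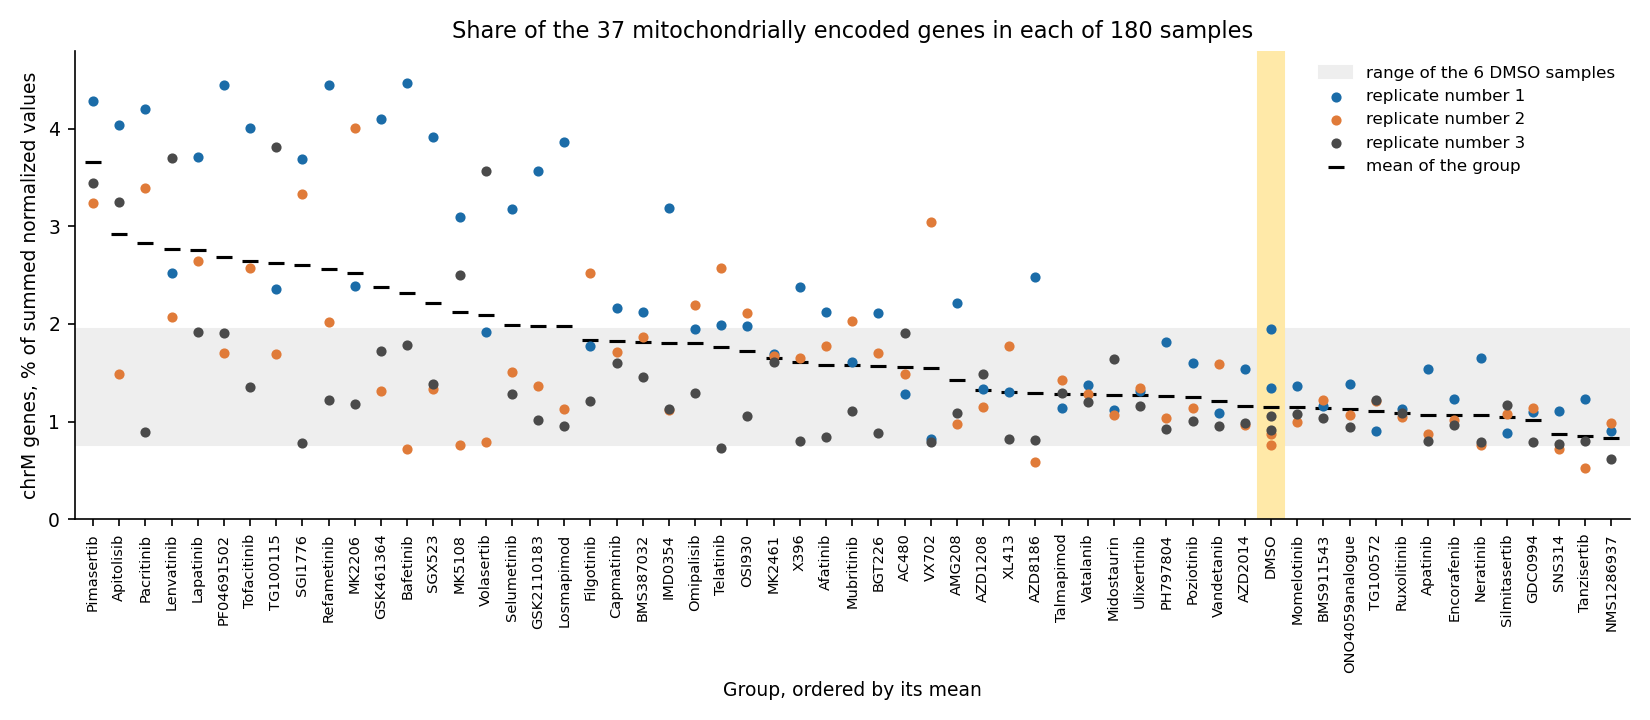
Share of the 37 chrM genes in the summed normalized values (%, vertical axis) of each sample, by group in the order of the group means, with points coloured by replicate number, the mean as a black dash, and the DMSO group (yellow) and its range (grey) marked. The 3 Pimasertib samples lie between 3.244% and 4.287%, above the highest DMSO sample at 1.945%, while most groups overlap the DMSO range and number 1 is often the highest point.

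The levels of the 17 genes varied together across samples. Over the 180 samples, the rank correlation between any 2 of the 13 mRNAs was between 0.917 and 0.993 (78 pairs, median 0.971). The pairs share library, scaling and chromosome, so this describes the libraries and was not tested. mt-Rnr1 (0.912 to 0.97 with the 13 mRNAs) and mt-Rnr2 (0.899 to 0.973) followed them closely. The 2 tRNA genes followed less closely, with 0.546 to 0.691 for mt-Tq and 0.727 to 0.845 for mt-Ts1.

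The width of the variation differed between genes. mt-Rnr1 spanned a 25.2-fold range over all samples, from 1513 to 38191, whereas mt-Rnr2 spanned 9.44-fold, from 26452 to 249790. Among the mRNAs, mt-Nd6 spanned 28.2-fold and mt-Nd4l 23.4-fold, and mt-Co3 8.71-fold. Across the 15 mRNA and rRNA genes, the SD of the log2 level and the level per kb had a rank correlation of −0.725, and genes are not independent replicates. As a share of the 13-mRNA sum, mt-Co1 made up 36.3% ± 1.87 in DMSO (SD, n = 6) and between 26% and 40.2% over all samples. The ratio of mt-Rnr2 to mt-Rnr1 ran from 6.02 to 26.5 over the 180 samples and was 14.7, 16.6 and 18.4 in DMSO set 1 and 11.2, 25.4 and 15.2 in set 2. It had a rank correlation of −0.778 with the chrM share, while the ratio of summed rRNAs to summed mRNAs had one of −0.0822.

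Most tRNA genes had values near 0. Of the 22, 8 lie on the minus strand and 14 on the plus strand, and the 5 with the highest means, mt-Tq (50.6), mt-Ts1 (48.2), mt-Tp (4.89), mt-Te (1.83) and mt-Tc (0.756), are all on the minus strand. The highest plus-strand tRNA gene was mt-Tf with 0.572. The remaining minus-strand tRNA genes, mt-Ta (0.544), mt-Tn (0.239) and mt-Ty (0.183), lay below it, so the strands overlapped in level. The gene for tRNA-Gln, mt-Tq, is shown with its neighbours mt-Ti and mt-Tm, and that for tRNA-Ser, mt-Ts1, with its neighbour mt-Td. Each is given in its own sense, because the neighbours differ from the measured pair in strand and, at about the same length, in level.
mt-Tq, chrM:3772-3842, minus strand, mean 50.6: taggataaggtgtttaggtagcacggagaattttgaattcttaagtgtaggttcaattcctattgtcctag
mt-Ti, chrM:3706-3774, plus strand, mean 0.161: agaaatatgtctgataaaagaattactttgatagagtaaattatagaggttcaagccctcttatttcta
mt-Tm, chrM:3845-3913, plus strand, mean 0.256: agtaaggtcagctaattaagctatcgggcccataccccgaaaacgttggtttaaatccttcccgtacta
mt-Ts1, chrM:6870-6938, minus strand, mean 48.2: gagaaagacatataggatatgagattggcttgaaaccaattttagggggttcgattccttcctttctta
mt-Td, chrM:6942-7011, plus strand, mean 0.05: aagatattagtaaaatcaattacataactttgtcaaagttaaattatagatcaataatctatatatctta
mt-Ts1 shares its last 3 bases with the end of mt-Co1 on the opposite strand, and mt-Tq shares 3 with mt-Ti. Since strand use is not given, reads at mt-Tq and mt-Ts1 may belong to either strand. In DMSO, mt-Tq had 35, 10 and 50 in set 1 and 61, 12 and 48 in set 2, and mt-Ts1 had 29, 21 and 27 and then 57, 11 and 18.

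Each CKI was then compared with DMSO, with limma's moderated test on log2(value + 1) in a fit of all 59 groups, over 12714 genes, and a gene was called at a Benjamini-Hochberg adjusted p under 0.05. On this scale the fold change of low genes is understated. Over the 58 CKIs and 17 genes, 67 of 986 comparisons were called higher (6.8%) and 0 lower. Over all genes tested, 2.52% of comparisons were called higher and 1.65% lower. None of the 986 had an unadjusted p under 0.05 in the lower direction, and 200 had one in the higher direction. The 67 calls came from 6 CKIs, namely Lapatinib (16), Pimasertib (15), Lenvatinib (14), Apitolisib (13), Tofacitinib (6) and PF04691502 (3). All 3 samples lay above all 6 DMSO samples in 45 of the 986 comparisons (4.56%) and below them in 0, beside 4.52% above and 2.02% below over all genes, so that by this count the share above was near the background. The number of calls rested on few libraries: it was 0 without the samples numbered 2, 7 without those numbered 3 and 60 without those numbered 1. Without 1 DMSO library at a time it was 77, 42 and 41 for numbers 1, 2 and 3 of set 1, and 119, 15 and 52 for those of set 2.

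The direction was broader than the calls. The median log2 difference of the 13 mRNAs was above 0 for 52 of the 58 CKIs and below 0 for 6, with a median over CKIs of 0.64. The corresponding median over all genes tested was 0.081, and ranged from −0.042 to 0.21 over CKIs. All comparisons share the 6 DMSO samples. Without all samples numbered 2, DMSO included, the median of the 13 mRNAs was above 0 for 39 CKIs. Relative to DMSO of the same replicate number, the median of the 13 mRNAs was above 0 for 35 CKIs in number 1, 54 in number 2 and 40 in number 3. It was above 0 in all 3 numbers for 25 CKIs, below in all 3 for 2, and mixed for 31. The 3 CKIs with all 13 mRNAs below DMSO were NMS1286937 (median −0.57), Tanzisertib (−0.47) and SNS314 (−0.39), and none of their chrM genes was called by limma or had an unadjusted p under 0.05. The spread of chrM genes was large: their median standard error was 0.59 on the log2 scale, beside 0.22 over all genes, and 99.4% of genes had a smaller one.

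**Figure D3:**
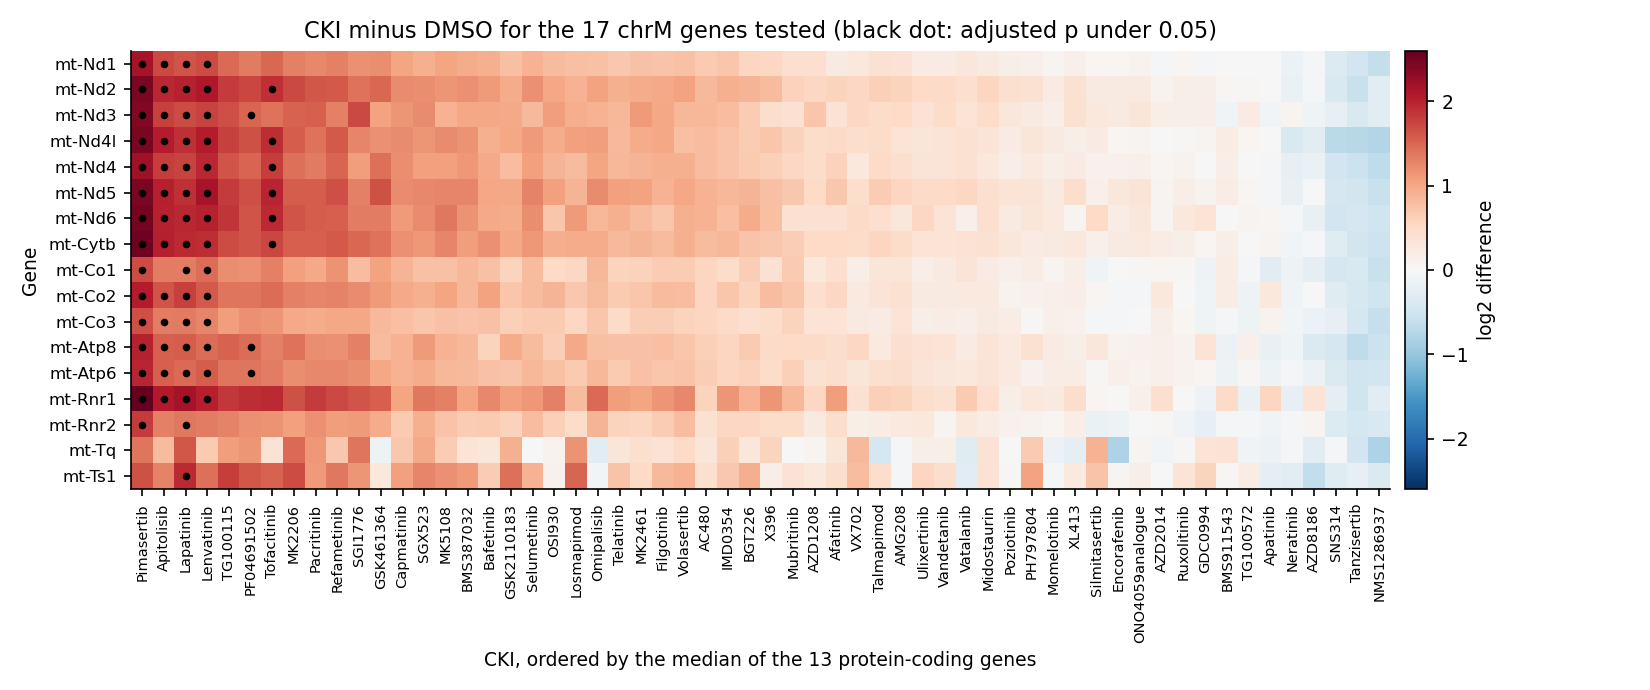
Log2 difference from DMSO (colour) of the 17 chrM genes tested (rows) for each of 58 CKIs (columns, ordered by the median of the 13 mRNAs), with a black dot where the adjusted p was under 0.05. The 67 dots all mark higher values and lie in 6 columns, and the darkest cell is mt-Rnr1 with Pimasertib at 2.59.

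By gene, mt-Atp6, mt-Atp8, mt-Cytb, mt-Nd2, mt-Nd3, mt-Nd4, mt-Nd4l, mt-Nd5 and mt-Nd6 were each called higher with 5 CKIs. mt-Co2, mt-Co3, mt-Nd1 and mt-Rnr1 were called with 4, mt-Co1 with 3, mt-Rnr2 with 2, mt-Ts1 with 1 and mt-Tq with none. The median log2 difference over the 58 CKIs was largest for mt-Rnr1 (0.88) and among the mRNAs for mt-Nd2 and mt-Nd5 (both 0.83), and smallest among them for mt-Co3 (0.49). The difference of mt-Rnr1 exceeded that of mt-Rnr2 for 55 of 58 CKIs, and that of mt-Cytb exceeded that of mt-Co3 for 55.

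With Pimasertib, all 13 mRNAs and both rRNAs rose. mt-Cytb, the complex III subunit, had 19681, 16283 and 16918 with Pimasertib, above every DMSO sample, and its log2 difference was 2.52 ± 0.59 (SE, n = 3 and 6; limma adjusted p = 0.00223). mt-Nd3 of complex I had 1037, 1299 and 1212 beside 122 to 393 in DMSO and rose by 2.41 ± 0.54 (limma adjusted p = 0.00141). mt-Co1 had 87023, 62201 and 53438 and rose by 1.69 ± 0.49 (limma adjusted p = 0.0119). mt-Atp6 rose by 1.99 ± 0.49 and mt-Rnr1 by 2.59 ± 0.72, from a DMSO range of 1798 to 8111 to 22607, 15326 and 19089. The other mRNAs rose by 1.67 (mt-Co3) to 2.49 (mt-Nd6). mt-Ts1 (1.65, limma adjusted p = 0.0666) and mt-Tq (1.40, limma adjusted p = 0.18) did not pass. In this comparison 16.0% of all genes tested were called higher and 5.68% lower. Within replicate numbers, the median difference of the 13 mRNAs was 1.54, 2.80 and 2.23 for numbers 1, 2 and 3. The count stayed between 14 and 16 without any 1 library of Pimasertib or DMSO, and was 0 without all samples numbered 2 and 2 without those numbered 3.

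With Lapatinib, which targets the receptor tyrosine kinases EGFR and ERBB2, the 13 mRNAs, both rRNAs and mt-Ts1 rose, where 18.1% of all genes were called higher and 5.26% lower. mt-Nd2 had 2149, 1425 and 1003 beside 192 to 928 in DMSO and rose by 2.01 ± 0.63 (SE; limma adjusted p = 0.0165). mt-Rnr1 rose by 2.17 ± 0.72, mt-Co2 by 1.78 ± 0.54 and mt-Co1 by 1.34 ± 0.49. mt-Ts1 had 182, 46 and 103 and rose by 1.95 ± 0.68 (limma adjusted p = 0.0299), although its second sample lay within the DMSO range of 11 to 57. The within-number medians of the mRNAs were 1.33, 2.54 and 1.48. The 16 calls fell to 0 without the Lapatinib library numbered 1, to 4 without that numbered 2, and to 0 without DMSO set 2 number 2.

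With Lenvatinib, an inhibitor of VEGF receptors and other kinases, the 13 mRNAs and mt-Rnr1 rose, with 11.4% of all genes called higher and 0.802% lower. mt-Nd5, a complex I subunit, had 5583, 4338 and 8863 beside 704 to 3601 in DMSO and rose by 2.14 ± 0.63 (SE; limma adjusted p = 0.0281), and mt-Nd4 by 1.97 ± 0.60 (limma adjusted p = 0.0313). mt-Rnr2, at 1.34 ± 0.49, just missed the threshold (limma adjusted p = 0.054). The within-number medians were 0.87, 1.87 and 2.61. The 14 calls were lost without any 1 of its 3 libraries, and without number 3 of DMSO set 1 or number 2 of DMSO set 2, and were 5 and 8 without number 2 of set 1 and number 3 of set 2. They were 2 with median-of-ratios scaling, and 0 with samples scaled to the same total or with the Lenvatinib and DMSO samples alone in the fit.

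With Apitolisib, an inhibitor of PI3K and mTOR, 12 of the 13 mRNAs and mt-Rnr1 rose, with 12.7% of all genes called higher and 3.20% lower. The exception was mt-Co1, at 1.33 ± 0.49 (SE; limma adjusted p = 0.0501). mt-Cytb had 18200, 6497 and 16182 and rose by 2.02 ± 0.59 (limma adjusted p = 0.0207). None of the 17 genes separated entirely from DMSO, and the share of all genes that did so with Apitolisib is not given here. The Apitolisib sample numbered 2 held 1.491% chrM values beside 4.041% and 3.247% in the others. The within-number medians were 1.48, 1.59 and 2.09. The 13 calls were 0 without the Apitolisib library numbered 1 or 3 or without DMSO set 2 number 2, and 8 without DMSO set 1 number 2.

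With Tofacitinib, a JAK inhibitor, 6 mRNAs rose, 5 of them of complex I, with 9.02% of all genes called higher and 0.857% lower. They were mt-Nd5 (8403, 6999 and 2676 in the 3 samples; 1.99 ± 0.63, SE; limma adjusted p = 0.0351), mt-Nd6, mt-Nd4l, mt-Nd2, mt-Nd4 and mt-Cytb (1.73 ± 0.59). The difference of the remaining 7 from these was not tested, and their values ran from 1.14 (mt-Co3) to 1.5 (mt-Nd1). The within-number medians were 1.51, 2.36 and 0.71. The 6 calls were 0 without the Tofacitinib library numbered 1 or 2 and 10 without that numbered 3. Without 1 DMSO library they were 10, 0 and 0 for numbers 1, 2 and 3 of set 1, and 15, 0 and 1 for those of set 2. They were 0 with each other scaling and with the Tofacitinib and DMSO samples alone in the fit.

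PF04691502, also an inhibitor of PI3K and mTOR, was named after its values were seen, as the only other CKI with a call. With it, mt-Nd3 (1.52 ± 0.54, SE; limma adjusted p = 0.0451), mt-Atp8 (1.45 ± 0.50) and mt-Atp6 (1.40 ± 0.49) rose, with 8.86% of all genes called higher and 4.22% lower. Its first sample held 4.446% chrM values, and the others 1.707% and 1.911%. The within-number medians were 1.77, 1.46 and 1.21. The 3 calls were 0 without the PF04691502 library numbered 1 or 3 and 5 without that numbered 2, and ran from 0 to 16 without 1 DMSO library, being 6, 0 and 0 for set 1 and 16, 0 and 1 for set 2. They were 1 with median-of-ratios scaling and 0 with the PF04691502 and DMSO samples alone in the fit.

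Mubritinib, made against ERBB2 and also known to inhibit complex I, and IMD0354, made against the kinase IKBKB and also known to uncouple mitochondria, were included because of these actions. Neither had a chrM gene called by limma, and none of the 17 had an unadjusted p under 0.05. With Mubritinib, 1.08% of all genes were called higher and 0.763% lower, and with IMD0354 0.102% and 0.267%. The 13 mRNAs had a median log2 difference of 0.60 for Mubritinib (0.39 to 0.72) and of 0.74 for IMD0354 (0.47 to 0.93). The chrM share was 1.607%, 2.026% and 1.104% with Mubritinib and 3.184%, 1.119% and 1.124% with IMD0354. Within replicate numbers the medians were −0.065, 1.75 and −0.0081 for Mubritinib and 1.17, 0.65 and 0.21 for IMD0354. The higher mean of Mubritinib thus came from the comparison within number 2. Its median was −0.024 without all samples numbered 2, DMSO included, and 0.32 without the Mubritinib library numbered 2 alone. The 95% confidence interval of mt-Co3, the most precise of the 13, ran from −0.28 to 1.46 with Mubritinib and from −0.37 to 1.38 with IMD0354. No change, and changes of either sign within these intervals, are thus compatible with the values.

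CKIs of the same target class stood at different levels, and as their concentrations differed the values are given side by side without a comparison, for a selection of the panel made with earlier results known. The median log2 difference of the 13 mRNAs was 2.21 for Pimasertib, 1.32 for Refametinib and 0.91 for Selumetinib among the MEK inhibitors. Among inhibitors of mTOR, most of them also of PI3K, it was 1.78 for Apitolisib, 1.52 for PF04691502, 0.87 for Omipalisib, 0.65 for BGT226 and 0.10 for AZD2014, and for the PI3K inhibitors TG100115 and AZD8186 it was 1.63 and −0.15. Among those of EGFR and ERBB2 it was 1.76 for Lapatinib, 0.80 for AC480, 0.47 for Afatinib, 0.24 for Poziotinib and −0.12 for Neratinib. Among those of VEGF receptors it was 1.76 for Lenvatinib, 0.84 for Telatinib, 0.33 for Vandetanib and Vatalanib alike, and −0.0032 for Apatinib. Among JAK inhibitors it was 1.5 for Tofacitinib, 1.35 for Pacritinib, 0.82 for Filgotinib, 0.19 for Momelotinib, 0.09 for Ruxolitinib and 0.052 for BMS911543. CKIs with and without a chrM gene called stood side by side in each class except for TG100115 and AZD8186, which both had none. This holds for the fit without a replicate block. With the block, TG100115 had 15 called, Refametinib 8 and Omipalisib 1, with no share of all genes given for that fit.

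The number of genes a CKI changed and the change of chrM genes did not go together in every case. BGT226 had 3060 genes called higher and 803 lower, yet none of the 17 chrM genes was called, and Omipalisib had 2227 and 1037, likewise with none (0 and 1 of the 17 at an unadjusted p under 0.05). TG100115 had a median of 1.63 over the mRNAs, with 3 genes called in all and no chrM gene, the lowest adjusted p of which was 0.0762 by limma. Of the 17 chrM genes, 16 had an unadjusted p under 0.05 with TG100115. The lack of calls depended on the fit: with the replicate number as a block, TG100115 had 15 chrM genes called and Omipalisib 1. For that fit the share of all genes called is not given here.

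Levels of chrM genes differed by replicate number on average over the groups. With the group as a term, all 17 genes were lower in number 2 than in number 1 and in number 3 than in number 1. Of all genes tested, 26.0% were called lower and 43.9% higher in number 2 than in number 1, and 32.4% and 41.2% in number 3 than in number 1. The log2 differences of the 13 mRNAs ran from −1.01 to −0.45 between numbers 2 and 1 (median −0.58) and from −0.91 to −0.56 between 3 and 1 (median −0.69), beside medians over all genes of 0.059 and 0.028. Only 2.4% and 2.08% of all genes lay below these mRNA medians. mt-Co1, for example, had a median of 40886.5 in the 60 samples numbered 1, of 26415 in those numbered 2 and of 20315 in those numbered 3, with ranges that overlapped widely.

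The size of the step differed by gene. Between numbers 2 and 1 it was largest for mt-Tq (−1.46 ± 0.16, SE), mt-Ts1 (−1.11 ± 0.14) and mt-Nd6 (−1.01 ± 0.14), which are the 3 minus-strand genes among the 17, followed by mt-Rnr1 (−0.99 ± 0.15). It was smallest for mt-Co3 (−0.45 ± 0.10). That these are the minus-strand genes was seen after the values, and the difference between strands was not tested. The step between numbers 3 and 1 had another order. It was largest for the plus-strand genes mt-Rnr1 (−1.17 ± 0.15), mt-Nd2 (−0.911 ± 0.14) and mt-Nd5 (−0.886 ± 0.14). The minus-strand genes had −0.884 (mt-Ts1), −0.807 (mt-Tq) and −0.698 (mt-Nd6). Between numbers 3 and 2, mt-Co1 (−0.27 ± 0.11; limma adjusted p = 0.039) and mt-Rnr2 (−0.26 ± 0.11; limma adjusted p = 0.0456) were lower and mt-Tq was higher (0.65 ± 0.16; limma adjusted p = 0.000427), where 21.1% of all genes were called lower and 16.0% higher. The chrM share was highest in number 1 for 36 of 58 CKIs (62.1%), in number 2 for 14 and in number 3 for 8. The study's methods give independent biological replicates, but whether samples of different groups with the same number share a preparation is not stated in the sources used here. The standard errors and p-values between numbers treat the 60 samples of a number as independent. If those samples share a preparation, these values do not measure the spread between preparations.

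**Figure D4:**
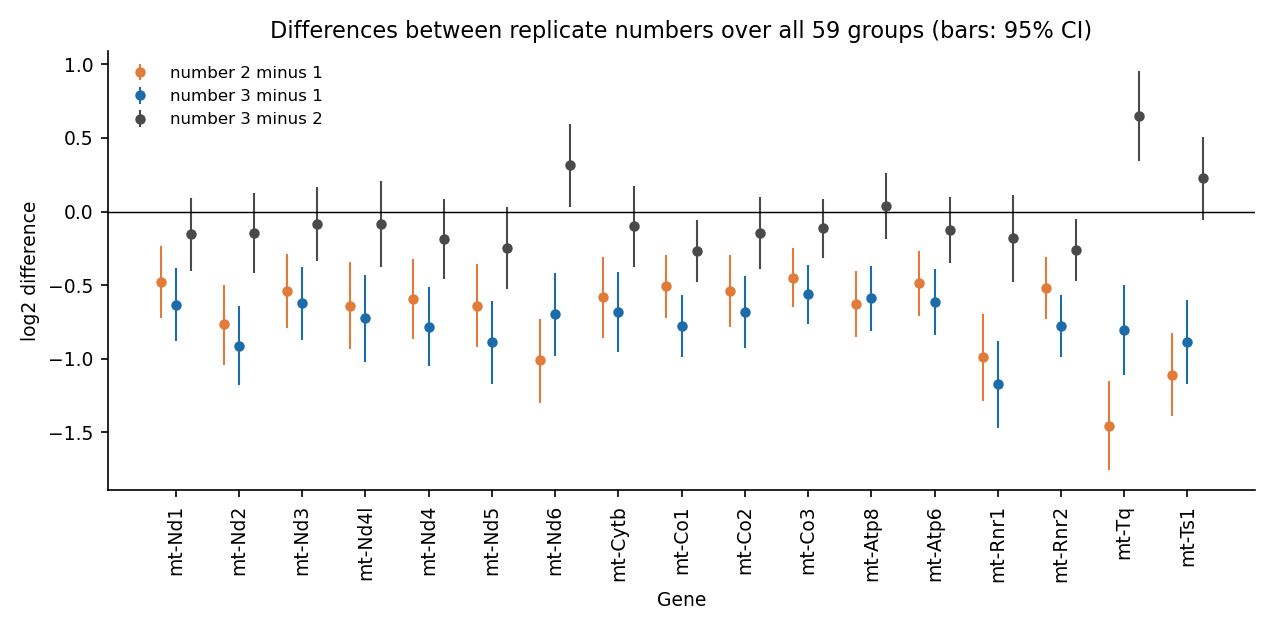
Log2 difference between replicate numbers (vertical axis) for the 17 chrM genes, from a fit with the group as a term over all 59 groups, with 95% confidence intervals as bars. The intervals treat the samples of a number as independent. All differences from number 1 lie below 0, between −1.46 and −0.45, whereas number 3 minus number 2 lies near 0 for most genes and at 0.65 for mt-Tq.

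Nuclear genes of the same machines were described beside these values, by counts and medians without a test of the lists. The 75 nuclear OXPHOS subunits tested had 4.67% of 4350 comparisons called higher and 0.414% lower over the 58 CKIs, beside 2.52% and 1.65% over all genes, with a median log2 difference of 0.13 beside 0.062. With Pimasertib 30 of the 75 were called higher (40%, beside 16.0% of all genes) and 1 lower, and with Lapatinib 44 (58.7%, beside 18.1%) and 1. With Apitolisib 35 were called higher (46.7%, beside 12.7%) and with Lenvatinib 23 (30.7%, beside 11.4%), with 0 lower in both. With Tofacitinib the 10 called higher (13.3%) stood nearer to the share of all genes (9.02%), and with PF04691502 the 1 called (1.33%) was below it (8.86%). With Mubritinib and IMD0354 none was called by limma. The differences of the 75 were much smaller than those of the chrM genes, with medians of 0.29 for Pimasertib and 0.36 for Lapatinib. Their mean log2 level was 10.1, 10.55 and 10.54 in Pimasertib samples 1, 2 and 3, beside 9.941 to 10.14 in DMSO. The Pimasertib sample numbered 1 thus lay within the DMSO range, whereas the Lapatinib samples (10.46, 10.47 and 10.47) lay above it. Complex IV had the largest share called, 7 of 11 genes with Pimasertib and with Lapatinib alike, among them Cox7b (0.77 with Pimasertib, 0.98 with Lapatinib) and Cox6c (0.70 and 0.85), which are small accessory subunits. In complex I, Ndufs8, an iron-sulfur subunit, rose by 0.49 and 0.53, and in complex II, which has no chrM subunit, Sdhc rose by 1.14 and 1.12 while Sdha was not called with any CKI. In complex III, Uqcrb rose by 1.27 and 1.35, and Uqcrfs1, the Rieske iron-sulfur protein, fell by 0.55 and 0.50. In complex V, Atp5g2, which encodes the c subunit of ATP synthase, was called higher with 9 CKIs.

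Across the 180 samples, the mean log2 level of the 75 nuclear subunits spanned 0.81, and that of the 13 chrM mRNAs 3.85. The rank correlation of both was 0.514 over samples and 0.533 over the 59 group means, as a description, since both come from the same libraries. For the 78 genes of mitochondrial ribosomal proteins it was 0.256 over samples and 0.521 over group means. These had 3.82% of comparisons called higher and 0.995% lower, beside 2.52% and 1.65% over all genes, with a median of 0.10. With Pimasertib 24 of the 78 rose (30.8%, beside 16.0% of all genes) and 0 fell, and with Lapatinib 25 rose (32.1%, beside 18.1%) and 2 fell. Their mean log2 level was 8.242, 8.644 and 8.619 in Pimasertib samples 1, 2 and 3. The first of these lay within the DMSO range of 8.23 to 8.375. Mrpl30 rose with both (0.36 and 0.57).

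**Figure D5:**
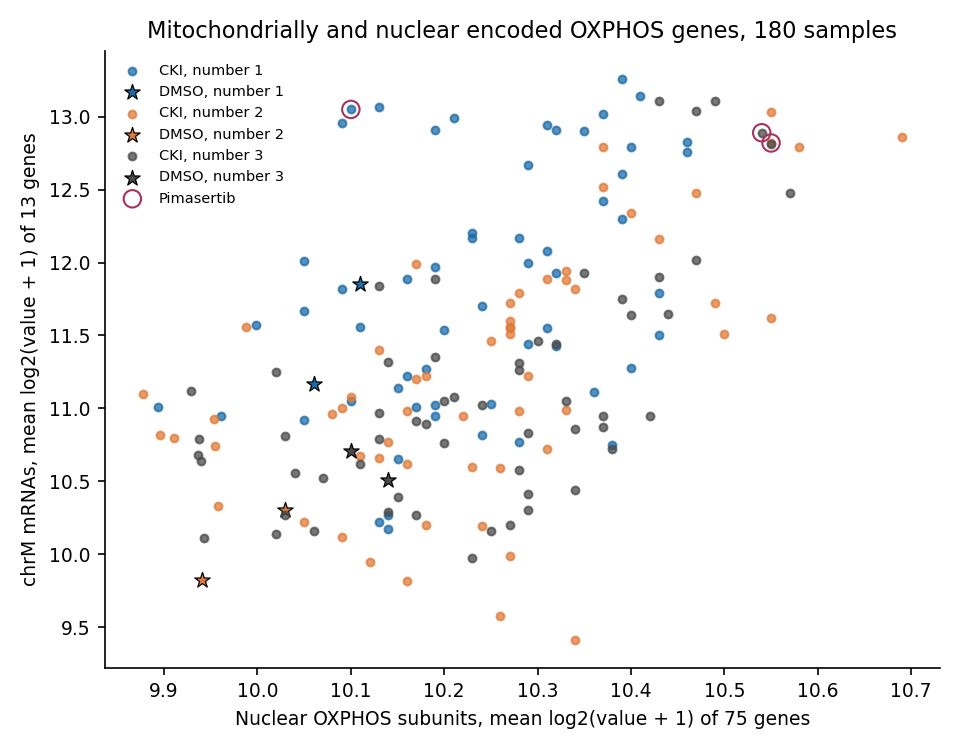
Mean log2(value + 1) of the 13 chrM mRNAs (vertical axis) against that of 75 nuclear OXPHOS subunits (horizontal axis) in each of 180 samples, coloured by replicate number, with DMSO as stars and Pimasertib circled. The vertical range is 3.85 and the horizontal 0.81, with a rank correlation of 0.514, and the DMSO stars lie at the left of the horizontal range.

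The genes that make and process mitochondrial RNA were called about as often as all genes. Of 29 genes of mitochondrial transcription, RNA processing and decay, 3 rose and 3 fell with Pimasertib (10.3% each, beside 16.0% and 5.68% of all genes). Over the 58 CKIs 1.9% of comparisons were called higher and 1.96% lower, beside 2.52% and 1.65% over all genes, with a median of 0.0042. Pde12, which removes poly(A) tails from mitochondrial RNA, was called lower with 11 CKIs and in none higher, among them Pimasertib (−0.97; limma adjusted p = 0.00747), Lapatinib (−0.92) and Apitolisib (−0.79). Mterf4, which acts in mitochondrial ribosome assembly, was called higher with 10 CKIs, at a low level of 33.3 ± 11.8 in DMSO (SD, n = 6). Fastkd5, needed for the maturation of mitochondrial mRNAs without flanking tRNAs, was called lower with 5. Among the 10 genes of mitochondrial DNA replication, 2.07% of comparisons were called higher and 1.72% lower, which is near the 2.52% and 1.65% over all genes. Among them Twnk, the helicase, was higher with 3 CKIs, and Tk2, which supplies deoxynucleotides, was lower with 4 and higher with 1. Of the 7 regulators of mitochondrial biogenesis, Pprc1 was called lower with 11 CKIs and Nrf1 with 6, and 5.42% of comparisons were lower and 0.739% higher, beside 1.65% and 2.52% over all genes. Of the 10 mitochondrial chaperones and proteases, Hspe1, the co-chaperone of Hsp60, was higher with 8 CKIs. Over this list 1.72% of comparisons were called higher and 0.517% lower, beside 2.52% and 1.65% over all genes. The nuclear-retained RNAs Malat1 and Neat1 were called higher with 1 and 4 CKIs. That was 4.31% of their comparisons, beside 2.52% over all genes, and none was called lower. Malat1 had a log2 difference of 1.15 with Pimasertib (limma adjusted p = 0.112) and rose by 1.59 with Lapatinib.

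The nuclear genes whose group means were most like the mean log2 of the 13 chrM mRNAs were sought over the 59 groups, among 7941 nuclear genes with a mean of at least 100. Rank correlations were highest for Cd53 (0.979), S100a4 (0.977), Cd300ld (0.969), Milr1 (0.962) and Cd48 (0.961), of which all but the calcium-binding protein S100a4 encode membrane proteins of leukocytes. They were lowest for Aldh2 (−0.849), Man2b1 (−0.847), Bsg (−0.847), Ifnar2 (−0.84) and Isyna1 (−0.839). None of the 10 is a mitochondrial respiratory gene, although Aldh2 is a dehydrogenase of the mitochondrial matrix. Of the genes compared, 29.5% had a correlation above 0.5 and 12.3% below −0.5. The relation was also present among samples of the same group: over the deviations of the 180 samples from their group means it was 0.939 for Cd53 and 0.957 for Cd48. Cd53 was called higher with 4 CKIs and rose by 1.61 with Pimasertib (limma adjusted p = 0.0112).

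Other quantities moved with the chrM level, and their part in the results was not tested. The summed nuclear values of a sample had a rank correlation of 0.809 with its chrM sum over the 180 samples, whose totals ran from 9477340 to 12273349. The sum of 8 macrophage markers, all above the filter, was 99709 to 216444 in DMSO and 148055 to 240933 in the 5 CKIs with the most calls, and had a rank correlation of 0.846 with the mean of the chrM mRNAs. Within that list, Lyz2 ranged from 34266 to 150355 over all samples and Csf1r from 21875 to 29924. The sum of 7 neutrophil markers was 224 to 638 in DMSO and 474 to 1391 in those 5 CKIs, with a rank correlation of 0.819, while Ly6g, the defining marker, averaged 0.622. Fibroblast markers (5 genes, 2 above the filter) summed to 19 to 147 in DMSO and 15 to 222 in those CKIs, with a rank correlation of −0.0742. Those of T cells (0 of 5 above the filter, 2 to 22 in DMSO and 4 to 21), B cells (1 of 5, 1 to 21 and 10 to 33), dendritic cells (1 of 5, 61 to 93 and 73 to 129) and erythroid cells (0 of 6, 0 to 3 and 0 to 6) were low. Cd3e, a defining marker of T cells, averaged 0.0944 and was thus near 0, and the label of macrophages stood with its markers.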

How the data were processed

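PolyA RNA was converted to SMART-seq2 libraries and, per the study's methods and the labels, reads were mapped to mm10 with TopHat2 2.1.1, blacklisted regions were removed with bedtools 2.29.2 and exonic reads were counted on RefSeq genes. The authors scaled the counts to invariant genes and deposited them rounded, so the unit is taken as a normalized score rather than a raw count. The deposited values do not give the read depth, so no counting interval is given; totals of normalized values ran from 9477340 to 12273349. A column of gene length deposited beside them was used for levels per kb. Since these are not counts, the count test named in the study's methods was not run.

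Here, values were taken as log2(value + 1), genes with a mean of at least 10 were kept (12714 of 45070), and limma 3.58.1 in R 4.3.3 fitted all 59 groups with a variance trend. Differences between replicate numbers were fitted with the group as a term, and the DMSO sets were compared in a fit that kept them as separate groups. Adjusted p-values are Benjamini-Hochberg over all genes of a comparison. Standard errors and 95% intervals come from these fits. The fits were tested on simulated data. The study's methods give 3 independent biological replicates, and the sources used here do not say whether samples of the same number share a preparation across groups. The members and gene lists were chosen with earlier results of these data known.

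All 13 mRNAs, both rRNAs and tRNA genes with a mean of at least 10 were named. CKIs were described singly where they were among the 5 with the most mRNAs called higher or the 5 with the most called lower, plus Mubritinib and IMD0354. Nuclear genes were the up to 3 of each list called with the most CKIs, and the 5 most and 5 least correlated with the chrM mRNAs. Alternatives covered the pseudocount, filter, scaling, DMSO set, variance trend, samples in the fit, replicate block and left-out libraries.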

Additional observations from a re-analysis of the deposited data

Results flagged for a closer look

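In the 6 DMSO samples, 3 of 23 quantities had a sample apart from the others by Dixon's criterion, where chance alone gives about 1 in 20 groups. The quantities vary together, so the count cannot be judged against that rate. The gap over the range was 0.63 for mt-Nd5, 0.645 for mt-Rnr1 and 0.628 for the rRNA to mRNA ratio, close to the critical value of 0.625. mt-Nd5 reached 3601 and mt-Rnr1 8111 in DMSO set 2 replicate 1, each the highest of 6. The ratio of summed rRNAs to summed mRNAs was 1.52 in DMSO set 2 replicate 2, the highest of 6 and of all 180 samples. These are the 2 libraries whose removal moved the count of chrM calls the most among the DMSO libraries, to 119 and to 15 from 67.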

How the results depend on the processing

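No gene called in the comparisons described changed sign, and no chrM gene was called lower against DMSO in any alternative. The 67 higher calls became 42 with no filter on low values, 18 and 13 with DMSO set 1 or set 2 alone, and 0 to 119 with libraries left out. With no filter, Lenvatinib had 1 gene called, Apitolisib 5, Tofacitinib 0 and PF04691502 1, and PF04691502 had 5 with a filter at a mean of 50. With median-of-ratios scaling Lenvatinib had 2, Tofacitinib 0 and PF04691502 1, and with the same nuclear or overall total Lenvatinib and Tofacitinib had 0. With set 1 alone Lapatinib had 3, and Lapatinib with set 2 alone and Lenvatinib, Apitolisib, Tofacitinib and PF04691502 with either set had 0. With only the CKI and DMSO samples in the fit, Lenvatinib, Tofacitinib and PF04691502 had 0. With libraries left out the ranges were 0 to 17 for Pimasertib, 0 to 16 for Lapatinib and PF04691502, and 0 to 15 for Lenvatinib, Apitolisib and Tofacitinib. Medians of uncalled comparisons did change sign: that of Mubritinib went from 0.60 to −0.024 without all samples numbered 2. That between the DMSO sets went from 0.11 to −0.40 without DMSO set 2 replicate 1 and to −0.061 without DMSO set 1 replicate 2. Between replicate numbers 3 and 2, 1 gene was called in place of 3 without the group term or without the filter. The chrM share with only the 13 mRNAs was 0.597% in DMSO, 1.91% with Pimasertib and 0.396% with NMS1286937, and with only the rRNAs 0.551%, 1.75% and 0.438%. Over single genes, 637 of 1004 CKI results kept their call and 367 lost it, and 362 of 368 between replicate numbers kept theirs. The causes were not tested. Scaling moved the median of all genes over CKIs from −0.042 to 0.21 as deposited to −0.015 to 0.025 with median-of-ratios scaling, while the median of the 13 mRNAs stayed above 0 for 52 CKIs. Other settings moved it: the median of the 13 mRNAs was above 0 for 39 CKIs without all samples numbered 2. With DMSO set 1 or set 2 alone it was above 0 for 53 and 49.

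With a replicate block, 133 calls were made, in 11 CKIs, and Tofacitinib and PF04691502 had 16 each; calls were gained for TG100115 (15), MK2206 (12), Refametinib (8), Omipalisib (1) and SGI1776 (1). The share of all genes called with the block is not given here. Whether the gain in calls was particular to chrM genes was therefore not tested. The main fit has no block, so differences between numbers remain in its spread. The mean correlation of deviations was 0.225 between samples of the same number and −0.112 between different numbers. Of 5307 same-number pairs, 71.8% exceeded 0.1, and the lowest stood at −0.726. As many as 155 of 180 samples lay closest on average to their own number, which is a hint from the data and not the design. Since what a number marks is not stated, these values do not settle whether a block is due. The depth is unknown, and the large spread of chrM genes limits what could be called.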
